A study of Mus musculus with 31 samples.

Results

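The accumbens and the prefrontal cortex differ in many transcripts, and the question here was for which genes that difference was itself different between 2 inbred mouse strains. The quantity is the strain by region interaction, (DBA Nac minus DBA mpFC) minus (C57 Nac minus C57 mpFC), on the log2 scale. A value above 0 means that expression in the Nac relative to the mpFC was higher in DBA than in C57, and a value below 0 that it was lower. It was computed over 21 of the 27 samples in the series, measured on 24 of its 31 arrays; 6 samples on 7 arrays were left out, as described below. All 25536 features of the deposited table (14434 with a gene symbol, the rest unnamed probes) entered 1 model.

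The mice were adult females of the strains C57BL/6J (C57) and DBA2/J (DBA), aged 12 weeks and carrying no transgene. Each sample was tissue of 1 brain region, either nucleus accumbens (Nac) or medial prefrontal cortex (mpFC). The RCF groups had undergone repeated cross-fostering, in which a whole litter was given to a new dam each day from postnatal day 1 to 4, with 4 adoptive mothers in all. Litters of the control groups (ctr) were lifted and put back with their own mother over the same days. After pooling with treatment as a term, the C57 mpFC had 5 samples (2 ctr, 3 RCF), the C57 Nac 4 (1 ctr, 3 RCF), the DBA mpFC 5 (2 ctr, 3 RCF) and the DBA Nac 7 (3 ctr, 4 RCF). Nothing in the labels ties a Nac sample to the mpFC sample of the same mouse, so p-values measure the spread between these samples.

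Some features of the series bear on every value below. All arrays of 1 strain and region lay on 1 slide and each of the 4 had a slide of its own, so slide and the interaction cannot be told apart. For 29 of the 31 arrays the deposited values equal the scanner file listed with another array. Values are taken here by the sample name on the deposited column. With scanner files as listed 0 features passed in limma (66 at an unadjusted p under 0.05). That fit used all 31 arrays, with none left out and none averaged, so its samples also differ from those used here. The 6 samples left out are those whose strain or region markers had gone against their labels in earlier work on these arrays. With them kept, 7295 features passed in place of 5660. Between 59.1% and 80.2% of the probes were well above background on each of the 24 arrays used.

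The mpFC is a cortical region dominated by glutamatergic pyramidal cells and takes part in the control of attention and of responses to stress. The Nac is the ventral part of the striatum, made up largely of GABAergic projection neurons that receive dopamine, and is known for its role in reward. C57 and DBA mice are a classic pair in addiction research because they differ in their responses to drugs of abuse, and the title of the series names Xlr4 and vulnerability to cocaine.

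In limma with Benjamini-Hochberg adjustment over all features, 5660 of 25536 features (22.2%) had an interaction at an adjusted p under 0.05. Of these, 1153 (4.52%) were above 0 and 4507 (17.6%) below 0, and the median over all features was -0.06. Among the 13739 named genes, those with a symbol that is no clone or predicted name, 725 (5.28%) were above 0 and 1558 (11.3%) below 0. The split depended on the scaling: quantile normalization called 4881, of which 57.7% were below 0 against 79.6% as deposited, and cyclic loess 4824, of which 55.8% were. The region difference itself passed for 14628 features (57.3%) in DBA and 9910 (38.8%) in C57.

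The calls below 0 were mostly dim features. Features were divided into 5 equal bins by mean log2 intensity. In the dimmest bin, with a mean log2 intensity under 6.98, 39.2% of features were called below 0 and 1.64% above, with a median interaction of -0.51. From the next bin upwards 26.5%, 13.6% and 6.23% were called below 0 and 3.19%, 4.95% and 6.52% above. In the brightest bin 2.8% were called below 0 and 6.27% above, with a median of 0.09. Median levels in the dimmest bin were 6.45 for DBA mpFC, 6.37 for C57 Nac, 6.14 for C57 mpFC and 6.13 for DBA Nac. Among all non-control probes of the arrays, not only those analysed, probes well above background were most frequent in the DBA mpFC. The median there was 74.9% per array (73.6% to 79.7%), against 65.3% for C57 Nac, 69.3% for C57 mpFC and 70.4% for DBA Nac. The part of this in the calls was not tested. Of 10 spike-in controls of constant amount, 8 had interactions between -0.17 and 0.21, and 2 of the 3 dimmest -1.17 and -1.03. The same 8 were lower in the Nac in both strains, by Nac minus mpFC differences of -1.18 to -0.47 in C57 and -1.14 to -0.26 in DBA, and the part of this in the region differences was not tested. In the brightest 2 of 5 bins 653 features (6.39%) were called above 0 and 461 (4.51%) below.

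**Figure D1:**
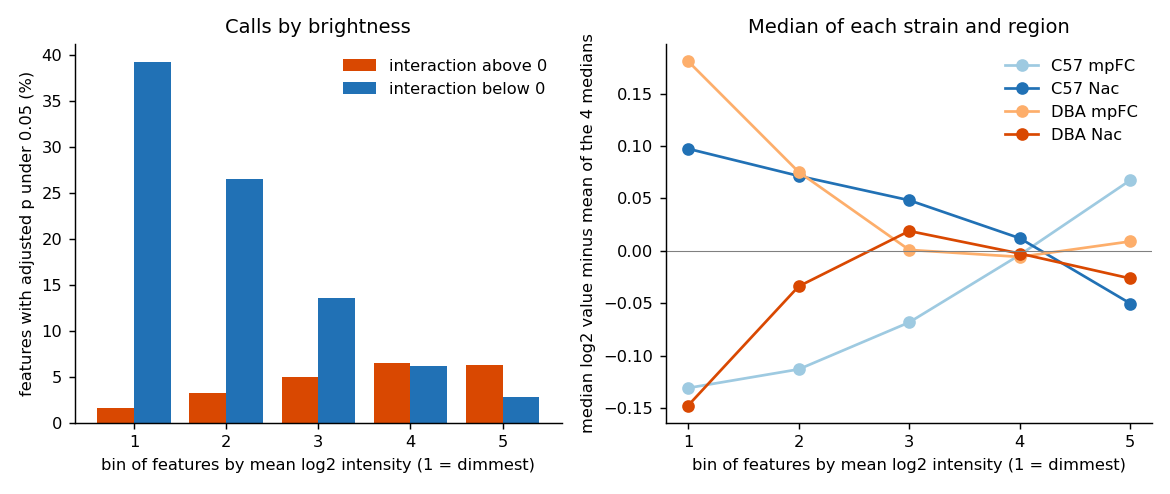
Left, percentage of features with an adjusted p under 0.05 and an interaction above or below 0 in each of 5 bins of mean log2 intensity. Right, median log2 value of each strain and region in the same bins, minus the mean of the 4 medians. Calls below 0 fall from 39.2% in the dimmest bin to 2.8% in the brightest.

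Odorant, vomeronasal and trace amine receptors, which are expressed mainly in sensory neurons of the nose, were examined as a group picked after its values were seen. Of 124 measured, 79 were called below 0 and 0 above, with a median interaction of -1.01, and 108 of the 124 lay in the dimmest 2 of 5 bins, where 39.2% and 26.5% of all features were called below 0. Under quantile normalization 50 were below 0 and 3 above (median -0.50), under cyclic loess 50 and 3 (-0.48), and with the normexp background correction 13 and 0 (-0.38).

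Several hormone and neuropeptide genes had interactions above 0. Sample values are log2 intensities, with ctr samples before RCF samples. Oxt, which encodes oxytocin, was measured at 5.89, 6.01, 6.25, 5.76 and 5.65 for C57 mpFC, 5.63, 5.77, 5.35 and 6.19 for C57 Nac, 6.32, 6.78, 6.57, 6.77 and 6.73 for DBA mpFC and 8.08 to 16.05 (median 10.82) for DBA Nac. All 7 DBA Nac samples were above every sample of the other groups, and they spread over a wide range, with DBA Nac ctr 1 and RCF 3 at the top. Its interaction was 4.78 ± 1.49 (SE), adjusted p = 0.0246. Without C57 Nac ctr 2+4 the adjusted p was 0.0591 (4.50), with all 31 arrays 0.0501 (3.79), with the normexp background correction 0.0612 (4.32), and without 3 C57 mpFC samples of high striatal score 0.103 (4.85).

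Nts, which encodes neurotensin, had log2 values of 5.69, 7.63, 5.64, 9.22 and 8.79 for C57 mpFC, 12.10, 12.08, 12.38 and 12.38 for C57 Nac, 4.97, 5.20, 5.08, 4.65 and 6.15 for DBA mpFC and 11.84 to 13.48 (median 12.60) for DBA Nac. Both Nac groups were above both mpFC groups, by 7.49 in DBA and 4.79 in C57, and the C57 mpFC samples ctr 2, RCF 3 and RCF 4 were above all DBA mpFC samples. The interaction of Nts was 2.70 ± 0.74 (SE), adjusted p = 0.0117. Without those 3 C57 mpFC samples it was 0.92, adjusted p = 0.197. Cartpt, the CART peptide precursor of reward circuits, was likewise higher in both Nac groups and lowest in the DBA mpFC, with region differences of 5.23 in DBA and 3.73 in C57 and an interaction of 1.501 ± 0.49, adjusted p = 0.0321. Its call was lost in 9 of the 21 fits that left out 1 sample, with a highest adjusted p of 0.073 without C57 mpFC RCF 3; the others left out C57 mpFC ctr 2, C57 Nac ctr 2+4, RCF 2 and RCF 4, DBA mpFC ctr 2+4, ctr 3 and RCF 2, and DBA Nac RCF 1.

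Trh, the precursor of thyrotropin-releasing hormone, was at 11.0004, 9.99, 10.42, 10.73 and 9.81 for C57 mpFC, 9.63, 10.04, 9.48 and 9.48 for C57 Nac, 8.03, 7.94, 8.94, 7.96 and 10.28 for DBA mpFC and 9.33 to 11.78 (median 9.66) for DBA Nac. It was highest in DBA Nac ctr 1 and RCF 3, the same samples that were highest for Oxt, and the groups overlapped. Its interaction was 2.25 ± 0.68 (SE), adjusted p = 0.0205, and 1.51, adjusted p = 0.063 with all 31 arrays. Cort, which encodes the interneuron peptide cortistatin, lay in the brightest 2 of 5 bins at 12.35, 12.31, 12.60, 12.58 and 12.81 for C57 mpFC, 9.60, 9.61, 9.71 and 9.77 for C57 Nac, 10.94, 11.30, 11.25, 11.47 and 11.39 for DBA mpFC and 9.32 to 10.82 (median 9.75) for DBA Nac. Every C57 mpFC sample was above every DBA mpFC sample, and the Nac groups overlapped. The interaction of Cort was 1.51 ± 0.24, adjusted p = 0.000125, and 0.12, adjusted p = 0.893 with all 31 arrays. Pomc, the precursor of the opioid beta-endorphin, had a smaller interaction of 0.46 ± 0.13, adjusted p = 0.0109. Of the 20 opioid and other peptide genes and receptors, 3 were above 0 (Pomc, Nts and Cartpt) and 0 below, with a median of 0.21. Over all features 4.52% were called above 0 and 17.6% below, and in the brightest 2 of 5 bins 6.39% and 4.51%.

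Channel and transporter genes were also among the named genes. Clic6, a chloride intracellular channel gene that is also a choroid plexus marker, was at 6.67, 7.55, 6.38, 8.44 and 7.58 for C57 mpFC, 11.99, 12.32, 11.99 and 12.15 for C57 Nac, 4.82, 5.19, 5.33, 4.86 and 6.67 for DBA mpFC and 11.88 to 12.74 (median 12.49) for DBA Nac. Both Nac groups lay far above both mpFC groups, and DBA mpFC RCF 4 stood above the other DBA mpFC samples. The interaction of Clic6 was 2.29 ± 0.47 (SE), adjusted p = 0.00124, and 1.48, adjusted p = 0.0331 without the 3 C57 mpFC samples. Aqp1, a water channel, was at 10.72, 10.61, 10.03, 9.39 and 8.08 for C57 mpFC, 5.50, 6.38, 6.37 and 5.88 for C57 Nac, 6.75, 6.39, 7.66, 6.35 and 8.58 for DBA mpFC and 5.42 to 6.12 (median 5.83) for DBA Nac. It was high in the C57 mpFC, where RCF 4 was lowest, and the Nac groups overlapped; its interaction was 2.40 ± 0.62, adjusted p = 0.00777, and 0.22, adjusted p = 0.904 with all 31 arrays. Slc6a3, the dopamine transporter, lay in the dimmest bin at 7.12, 6.25, 6.17, 7.01 and 8.49 for C57 mpFC, 6.68, 6.30, 6.11 and 6.11 for C57 Nac, 5.11, 4.83, 5.25, 4.77 and 6.23 for DBA mpFC and 5.61 to 6.97 (median 6.46) for DBA Nac, and its interaction was 1.94 ± 0.49, adjusted p = 0.00689.

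Wfdc18, which encodes a small secreted WAP-domain protein, had the smallest adjusted p of the named genes above 0. Its values were 9.93, 10.22, 10.75, 10.80 and 9.95 for C57 mpFC, 8.67, 8.68, 8.66 and 8.43 for C57 Nac, 6.74, 7.51, 6.38, 6.39 and 6.72 for DBA mpFC and 7.39 to 8.41 (median 8.06) for DBA Nac. Every C57 mpFC sample was above every sample of the other groups, and the DBA mpFC was lowest but for overlap of ctr 3 with DBA Nac RCF 4. The region difference was -1.70 in C57 and 1.30 in DBA, of opposite sign, and the interaction 3.00 ± 0.31 (SE), adjusted p = 3.6e-06. Among transcription factors, Six3, a homeobox gene of the developing forebrain, was at 5.91, 7.58, 5.72, 7.68 and 6.85 for C57 mpFC, 10.74, 11.12, 10.95 and 11.50 for C57 Nac, 4.78, 6.06, 4.86, 4.51 and 4.00 for DBA mpFC and 10.49 to 11.59 (median 10.99) for DBA Nac. Its interaction was 1.85 ± 0.52, adjusted p = 0.0138, and 0.89, adjusted p = 0.239 without the 3 C57 mpFC samples. Six3 is itself in the striatal score by which those samples were picked, so part of that change follows from the choice. Zfp521, a zinc finger gene, was higher in the Nac of both strains, with region differences of 2.17 in DBA and 1.16 in C57 and an interaction of 1.01 ± 0.15, adjusted p = 6.46e-05. Atf5, a stress-responsive factor, ran in opposite directions, with 0.49 in DBA and -0.46 in C57, and an interaction of 0.96 ± 0.14, adjusted p = 8.58e-05.

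The other genes above 0 with the highest values or smallest p were of mixed kinds. Tdrd5, known from germ cells, was at 5.24, 4.85, 5.08, 5.73 and 5.27 for C57 mpFC, 5.68, 5.63, 5.25 and 5.33 for C57 Nac, 4.56, 4.03, 4.22, 3.88 and 3.85 for DBA mpFC and 5.67 to 7.03 (median 6.27) for DBA Nac. Its DBA mpFC samples were below all others, and its interaction was 1.98 ± 0.32, adjusted p = 0.000169. The interactions of Mnd1, a meiotic recombination gene, and of Crybg1 were 1.84 ± 0.53, adjusted p = 0.0162 and 1.71 ± 0.41, adjusted p = 0.00476, and with all 31 arrays they were 0.94, adjusted p = 0.195 and 0.52, adjusted p = 0.496. Gng8, a G protein gamma subunit, had 1.76 ± 0.54, adjusted p = 0.0241; its adjusted p was 0.0632 (1.61) without C57 Nac ctr 2+4, 0.0502 (1.67) without C57 Nac RCF 4 and 0.0545 (1.59) without DBA mpFC ctr 3. Gsn, the actin-severing protein gelsolin, had 0.98 ± 0.15, adjusted p = 0.000115, and its other probe 0.93. Trim25, a ubiquitin ligase of antiviral signalling, had 1.08 ± 0.17, adjusted p = 0.000122. Fam126b had 0.89 ± 0.14, adjusted p = 0.000109, but 0.01 on its other probe.

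**Figure D2:**
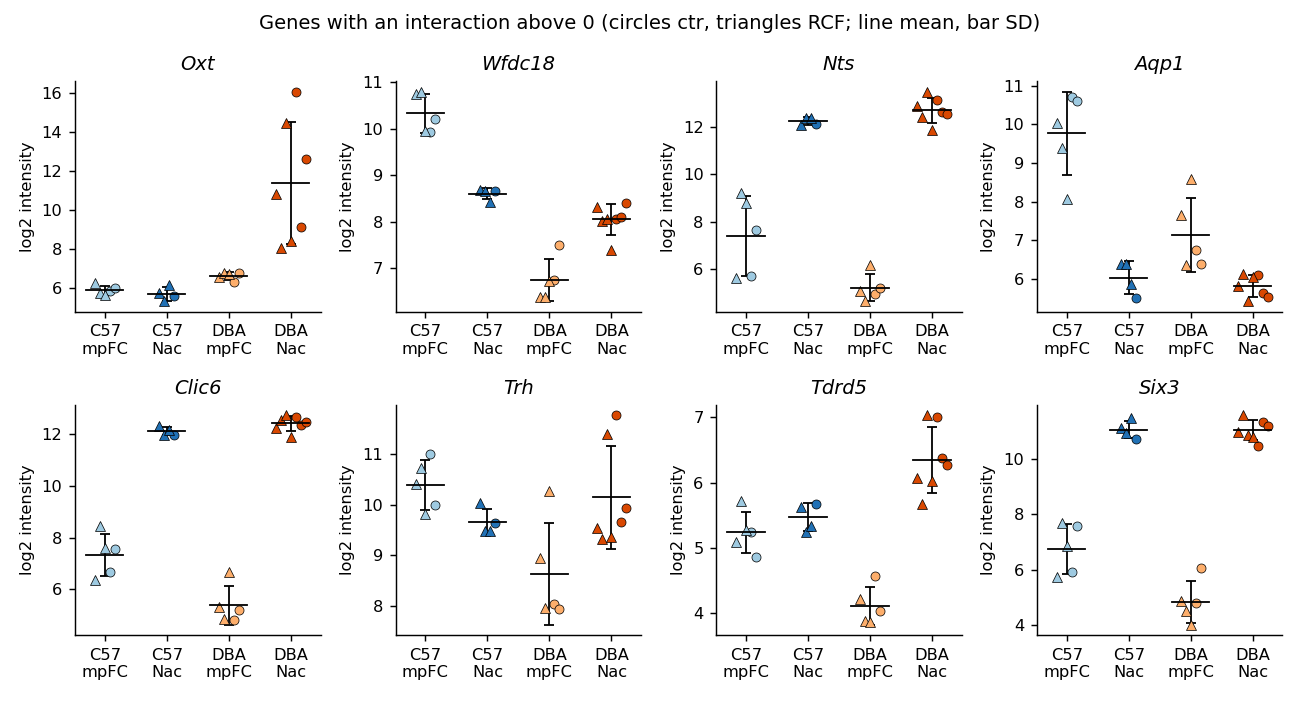
Log2 intensity of 8 genes with an interaction above 0 in each sample (circles ctr, triangles RCF), by strain and region; lines are means and bars SD. Oxt stands out in the 7 DBA Nac samples and ranges there from 8.08 to 16.05, whereas Wfdc18 is highest in the C57 mpFC.

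Below 0, the most negative named genes included odorant receptors, and several genes that were high in the DBA mpFC. Olfr901, an odorant receptor gene, was at 5.29, 5.44, 4.96, 5.63 and 5.45 for C57 mpFC, 5.68, 5.74, 5.86 and 7.15 for C57 Nac, 7.32, 7.31, 7.05, 7.22 and 7.38 for DBA mpFC and 4.14 to 4.99 (median 4.73) for DBA Nac. The DBA Nac was low and overlapped the C57 mpFC only at C57 mpFC RCF 2, and the DBA mpFC was above all samples but C57 Nac RCF 4. Its interaction was -3.34 ± 0.32 (SE), adjusted p = 3.02e-06. The other odorant receptors named by their rank, Olfr94, Olfr170, Olfr1307 and Olfr513, had -2.86, -2.31, -1.91 and -2.13.

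Syt10, a vesicle calcium sensor of the synaptotagmin family, was at 6.68, 5.97, 6.15, 6.11 and 7.51 for C57 mpFC, 6.95, 6.68, 6.66 and 6.71 for C57 Nac, 10.76, 10.31, 10.37, 10.67 and 11.46 for DBA mpFC and 7.05 to 10.18 (median 7.73) for DBA Nac. The DBA mpFC was above every other sample, and DBA Nac RCF 2 and RCF 3 came closest to it. The interaction of Syt10 was -2.69 ± 0.68 (SE), adjusted p = 0.00652. Bgn, which encodes the matrix proteoglycan biglycan, was at 8.36, 8.32, 7.62, 8.07 and 7.08 for C57 mpFC, 8.33, 7.41, 8.52 and 7.94 for C57 Nac, 10.24, 10.06, 9.74, 9.85 and 10.11 for DBA mpFC and 6.46 to 8.16 (median 7.99) for DBA Nac. It was again higher in all DBA mpFC samples than in any other, with an interaction of -2.46 ± 0.36, adjusted p = 6.57e-05. Ier5, an immediate early response gene, was at 7.98, 8.65, 8.25, 7.62 and 7.10 for C57 mpFC, 6.87, 7.59, 7.83 and 7.92 for C57 Nac, 10.35, 10.48, 10.44, 9.94 and 10.34 for DBA mpFC and 6.95 to 8.59 (median 7.32) for DBA Nac, with the DBA mpFC above all other samples and an interaction of -2.39 ± 0.42, adjusted p = 0.000366.

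Kcnip2, a subunit of A-type potassium channels, had another pattern, at 7.84, 7.92, 8.01, 7.38 and 7.58 for C57 mpFC, 9.28, 10.10, 9.97 and 10.37 for C57 Nac, 9.49, 10.14, 9.98, 9.69 and 10.04 for DBA mpFC and 8.55 to 10.72 (median 10.07) for DBA Nac. Here the C57 mpFC was the low group, below every other sample, and DBA Nac ctr 1, RCF 3 and RCF 4 were the lowest of the DBA Nac. Its region difference was 2.18 in C57 and -0.19 in DBA, and the interaction -2.36 ± 0.48, adjusted p = 0.00121. Other genes among the lowest were Rhbdl2, a rhomboid protease, at -2.63 ± 0.34, adjusted p = 2.36e-05, Pifo, a primary cilium gene, at -2.42 ± 0.33, adjusted p = 3.22e-05, and Ston1, an endocytic adaptor, at -2.37 ± 0.23, adjusted p = 3.02e-06. Cd247, the zeta chain of the T cell receptor, had -2.29 ± 0.46, adjusted p = 0.00119. Prrg4 and Lctl, both in the dimmest bin, had -2.25 and -1.62.

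The brightest 2 of 5 bins, a subset chosen after the dependence on brightness was seen, gave further genes below 0, in several of which the DBA mpFC stood apart. Septin5, a filament protein of presynaptic terminals, was at 10.701, 10.65, 10.87, 10.28 and 10.27 for C57 mpFC, 9.96, 10.39, 10.37 and 10.46 for C57 Nac, 12.48, 12.65, 12.78, 12.39 and 12.88 for DBA mpFC and 10.13 to 11.05 (median 10.49) for DBA Nac. The interaction of Septin5 was -1.82 ± 0.23, adjusted p = 1.92e-05. Cacng3, an auxiliary subunit of AMPA receptors, was at 10.64, 10.58, 10.86, 10.21 and 10.22 for C57 mpFC, 9.93, 10.20, 10.08 and 10.35 for C57 Nac, 11.60, 11.88, 11.80, 11.99 and 11.97 for DBA mpFC and 9.59 to 10.45 (median 10.10) for DBA Nac, with an interaction of -1.41 ± 0.23, adjusted p = 0.000151. In both genes all 5 DBA mpFC samples were above all others. Atp6v1g2, a subunit of the proton pump of synaptic vesicles, was at 11.97, 11.88, 12.34, 11.99 and 12.21 for C57 mpFC, 11.85, 12.02, 11.98 and 11.97 for C57 Nac, 13.77, 13.55, 13.79, 13.71 and 13.77 for DBA mpFC and 12.02 to 12.60 (median 12.46) for DBA Nac; its DBA mpFC samples were again highest, and the interaction was -1.16 ± 0.14, adjusted p = 1.1e-05.

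Others of this set were Nat14, with -1.19 ± 0.15, adjusted p = 1.82e-05, Kcna7 with -1.19 ± 0.25, adjusted p = 0.00181, Cdhr2 with -1.18 ± 0.22, adjusted p = 0.000504 and Scgb1b10 with -1.29 ± 0.31, adjusted p = 0.00503. Pisd-ps3, a pseudogene whose signal may come from its parent gene, had -1.16 ± 0.24, adjusted p = 0.00145. Xntrpc had -2.21 ± 0.44, adjusted p = 0.00112 but -0.34 on its other probe. Spint2, a protease inhibitor, had -1.69 ± 0.52, adjusted p = 0.0234, -0.08 on its other probe, and an adjusted p of 0.0616 (-1.43) without C57 Nac RCF 3. Ddn, the dendritic protein dendrin, had -1.65 ± 0.52, adjusted p = 0.0272; its adjusted p was 0.0531 (-1.56) without C57 mpFC RCF 3, 0.0572 (-1.55) without C57 Nac RCF 4 and 0.0608 (-1.49) without DBA mpFC ctr 3. Gpr37l1, an astrocyte receptor, was lower in every C57 mpFC sample than in any other sample but DBA Nac RCF 4, with -1.46 ± 0.44, adjusted p = 0.0203, and -1.26, adjusted p = 0.14 without the 3 C57 mpFC samples.

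Above 0 in the same subset, Mrap2, an accessory protein of melanocortin receptors, was at 9.64, 10.14, 10.04, 10.35 and 10.51 for C57 mpFC, 11.66, 11.50, 11.06 and 11.20 for C57 Nac, 9.19, 9.49, 9.00, 9.25 and 9.29 for DBA mpFC and 11.64 to 12.60 (median 12.00) for DBA Nac. It was higher in the Nac in both strains, by 2.83 in DBA and 1.23 in C57, with an interaction of 1.61 ± 0.26, adjusted p = 0.000177. Ccnd1, the cell cycle gene cyclin D1, differed between regions in C57 (-1.30) and by -0.13 in DBA, with 1.17 ± 0.22, adjusted p = 0.000612, and 0.43, adjusted p = 0.32 with all 31 arrays. Vstm2b, Tbc1d16 and Elovl7, a fatty acid elongase, had 1.20 ± 0.25, adjusted p = 0.00174, 1.13 ± 0.24, adjusted p = 0.00199 and 1.09 ± 0.23, adjusted p = 0.00163. Pxdn, a matrix peroxidase, had 1.20 ± 0.19, adjusted p = 0.000133 but 0.04 on its other probe. Sstr3, a somatostatin receptor, had Nac minus mpFC differences of -2.35 in DBA and -3.45 in C57, and an interaction of 1.10 ± 0.36, adjusted p = 0.0343; with all 31 arrays it was -0.50, adjusted p = 0.616, and the call was lost without any 1 of C57 mpFC ctr 2, C57 Nac RCF 2, RCF 3 or RCF 4, or DBA mpFC RCF 2 or RCF 4 (highest adjusted p 0.0704). Fabp7, a glial fatty acid carrier, had 1.05 ± 0.35, adjusted p = 0.0356, lost in 8 of 21 such fits (highest adjusted p 0.0833).

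**Figure D3:**
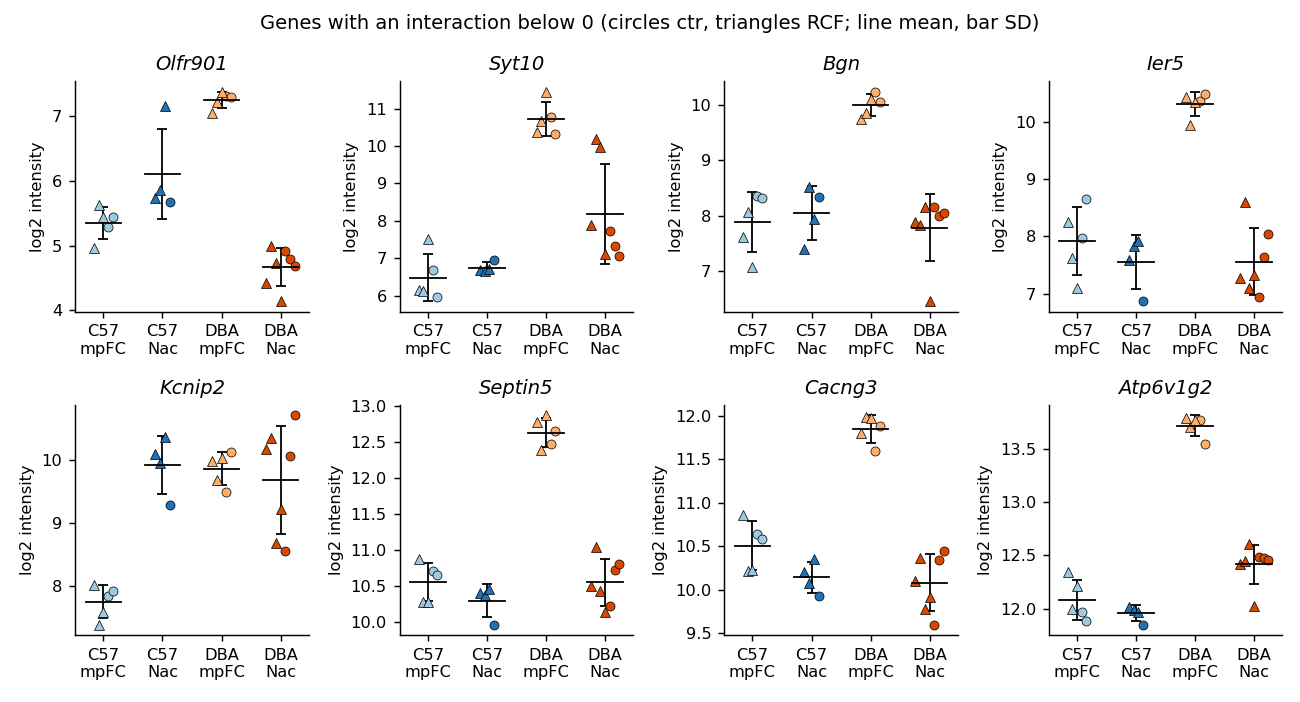
Log2 intensity of 8 genes with an interaction below 0 in each sample (circles ctr, triangles RCF), by strain and region; lines are means and bars SD. In 6 of the 8 the 5 DBA mpFC samples lie above all others; the mean of Olfr901 is lowest in the DBA Nac and that of Kcnip2 in the C57 mpFC.

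Of the 5660 features called, 532 had region differences past the threshold in both strains and of opposite sign, 2.08% of all features. In 489 of them the Nac was lower than the mpFC in DBA and higher in C57, and in 43 the reverse. For 3542 the region difference passed in DBA only, for 1028 in C57 only, for 448 in both with the same sign, and for 110 in neither; passing in 1 strain is no test of a difference, which the interaction gives. In the brightest 2 of 5 bins the opposite-sign group held 55 of 1114, 35 lower and 20 higher in the DBA Nac than in the DBA mpFC. Over all features the 532 became 122 with the normexp background correction, 12 with the oligodendrocyte score as a covariate and 0 with the striatal minus cortical score. Both scores largely follow region in these samples, so as covariates they take up much of the region difference. The 12 and 0 therefore cannot decide how many features have opposite signs. The same fits called 4790 and 5944 interactions. The group furthest from the other 3 was the DBA mpFC for 2706 of the called features (47.8%), against 34.2% of all features.

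**Figure D4:**
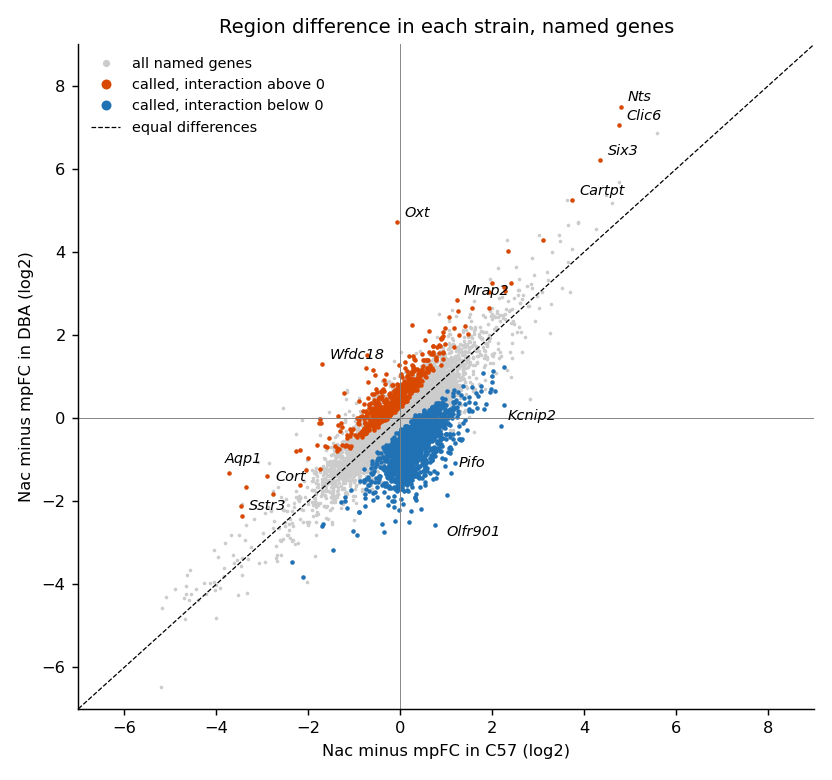
Nac minus mpFC difference (log2) in C57 and in DBA for the 13739 named genes; coloured points passed the interaction test and the dashed line marks equal differences. Nts, Clic6 and Six3 are higher in the Nac of both strains, Oxt lies near 0 for C57 and at 4.71 for DBA, and Wfdc18 has opposite signs.

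Markers of the cells in each region were then taken as lists, whose background is the 4.52% and 17.6% above. Most of these lists had their median level in the brightest 2 of 5 bins, where 6.39% were called above 0 and 4.51% below. Striatal projection neuron genes held 1 above 0 (Six3) and 0 below of 26, median 0.16, and 25 of the 26 differed between regions in DBA and 24 in C57, in samples already chosen by such markers. The median was 0.58, with 7 above 0, without DBA Nac ctr 1, RCF 3 and RCF 4, and -0.25, with 0 called, without C57 mpFC ctr 2, RCF 3 and RCF 4. Samples were left out by marker scores that include this list, so these shifts follow in part from the choice. Cortical excitatory neuron genes held 0 above and 1 below of 16, median -0.43; the one below was Rtn4rl2, a Nogo receptor relative, with -1.37 ± 0.26, adjusted p = 0.000796. Oligodendrocyte and myelin genes held 3 above and 0 below of 21, median 0.31. These were Mal with 1.04 ± 0.28, adjusted p = 0.0103, Cldn11 with 0.92 ± 0.27, adjusted p = 0.018 and Trf with 0.87 ± 0.31, adjusted p = 0.0466, a myelin membrane protein, a tight junction protein of myelin and the iron carrier transferrin. Without the 3 C57 mpFC samples of high striatal score, Mal was 0.72, adjusted p = 0.133, Cldn11 0.61, adjusted p = 0.155 and Trf 0.42, adjusted p = 0.392; Trf was also lost in 14 of 21 fits that left out 1 sample (highest adjusted p 0.0887). Mbp, a main protein of myelin, had -0.10 ± 0.31, adjusted p = 0.859, and 0.23 without C57 mpFC RCF 4.

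Interneuron genes held 2 above 0 and 0 below of 16, median 0.45: Cort, and Slc32a1, the vesicular GABA transporter, with 0.56 ± 0.16, adjusted p = 0.0143, whose dimmer other probe gave -0.92. Septal and ventral forebrain genes held 2 above and 0 below of 9, with 8 of 9 positive and a median of 0.63: Oxt, and the zinc finger gene Zic1 with 1.32 ± 0.47, adjusted p = 0.0473. Zic1 had -0.03 on its other probe and lost its call in 14 of 21 fits that left out 1 sample (highest adjusted p 0.0962). Without C57 mpFC ctr 2, RCF 3 and RCF 4 neither septal gene was called and the median was 0.31. Without DBA Nac ctr 1, RCF 3 and RCF 4, of which ctr 1 and RCF 3 had the highest septal scores, 1 was called and the median was 0.37. The septal score is made of these same genes, so part of that shift follows from the choice of samples. Microglial genes held 0 above and 1 below of 18, the complement gene C1qb with -0.82 ± 0.14, adjusted p = 0.0003. Astrocyte genes held 1 above and 0 below of 16, the glutamate transporter Slc1a3 with 0.58 ± 0.16, adjusted p = 0.012. Vascular and meningeal genes held 0 above and 2 below of 20, Tek with -1.02 ± 0.29, adjusted p = 0.0134 and Pecam1 with -0.71 ± 0.22, adjusted p = 0.0222, both endothelial, beside a median of 0.34. Choroid plexus and ependymal genes held 1 above and 0 below of 8, Clic6.

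Summed marker levels moved with several of these results. The striatal score, the mean log2 value of the list, was 10.38 to 10.45 in 4 of the 5 DBA mpFC samples and 10.28 in the other, but 10.60, 11.44, 10.60, 11.59 and 11.27 in the C57 mpFC, with ctr 2, RCF 3 and RCF 4 high. In the C57 Nac it was 13.10 to 13.68, and the cortical score was 11.08 to 11.88 in the mpFC and 8.61 to 10.29 in the Nac. Samples with markers of the other region had been left out, so this separation is set in part by the choice of samples. In the DBA Nac the striatal score was 11.79 in ctr 1 and 11.83 in RCF 3, against 13.08 to 13.57 in the other samples. The septal score was 11.12 and 10.89 in the same 2 DBA Nac samples and 9.74 to 10.20 in the others. The 10.29 was DBA Nac RCF 4, against 8.61 to 9.46 in the other DBA Nac samples. The fit was also made with these samples left out. Without C57 mpFC ctr 2, RCF 3 and RCF 4, 3424 features were called. With fewer samples in a group, calls can be lost though the estimate barely changes, as for Oxt above. The counts of calls therefore cannot decide the part of these samples in the result. Without DBA Nac ctr 1, RCF 3 and RCF 4, 5334 features were called and Oxt was 3.64, adjusted p = 0.0038. Oxt is itself in the septal score and was highest in DBA Nac ctr 1 and RCF 3. Its change is therefore set in part by the choice of samples. In bulk tissue fewer cells of a type and less RNA per cell cannot be told apart.

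**Figure D5:**
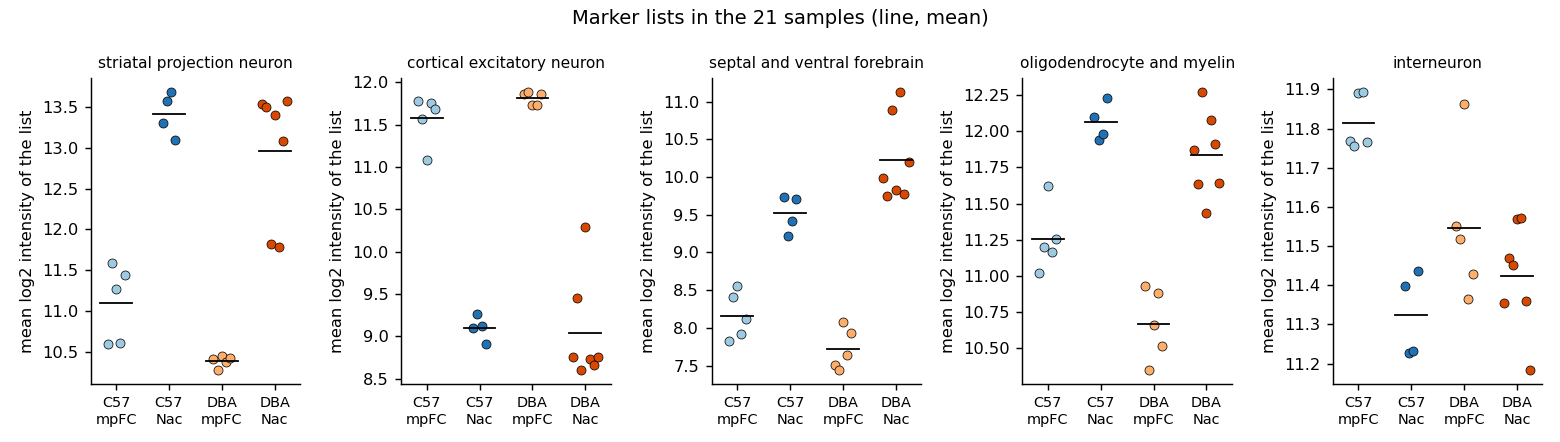
Mean log2 intensity of 5 marker lists in each of the 21 samples by strain and region; lines are means. The striatal score spreads from 10.60 to 11.59 in the C57 mpFC and 10.28 to 10.45 in the DBA mpFC, and 2 DBA Nac samples lie low in it and high in the septal score.

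Voltage-gated ion channels were taken as 2 lists, to be read beside the 4.52% of all features called above 0 and the 17.6% called below. The median level of both lists lay in the brightest 2 of 5 bins, where these shares were 6.39% and 4.51%. Of 32 voltage-gated potassium channel genes 0 were above and 5 below, with a median of -0.10: Kcnip2, Kcna3 with -0.96 ± 0.23, adjusted p = 0.00491, Kcnh1 with -1.21 ± 0.34, adjusted p = 0.014, Kcnab2 with -1.38 ± 0.39, adjusted p = 0.0147, and Kcnh4 with -1.11 ± 0.37, adjusted p = 0.037. The list did not include Kcna7, given above. The call of Kcnh4 was lost in 9 of 21 fits that left out 1 sample (highest adjusted p 0.0736). Of 26 calcium and sodium channel genes 1 was above and 6 below, with a median of -0.17. Among the 6 was Cacng3, the AMPA receptor subunit given above, which the list held. Also among them were the calcium channel subunits Cacnb1 with -0.99 ± 0.26, adjusted p = 0.00834, Cacnb2 with -0.94 ± 0.22, adjusted p = 0.00414 and Cacna1b with -1.0 ± 0.35, adjusted p = 0.0447. The sodium channel subunit Scn3b was another, with -0.46 ± 0.14, adjusted p = 0.0227. Cacna2d2, a calcium channel subunit, was the one above 0, with 0.79 ± 0.27, adjusted p = 0.0413, and 0.73, adjusted p = 0.0606 under quantile normalization, 0.71, adjusted p = 0.0735 under cyclic loess, 0.58, adjusted p = 0.121 without the 3 DBA Nac samples and 0.33, adjusted p = 0.48 without the 3 C57 mpFC samples. The call of Cacna2d2 was lost in 15 of 21 fits that left out 1 sample (highest adjusted p 0.0894), that of Cacna1b in 14 (0.112) and that of Scn3b without C57 Nac ctr 2+4 (-0.32, adjusted p = 0.0896) or DBA mpFC ctr 2+4 (-0.42, adjusted p = 0.0513). Cacna1b, a dim feature, was -0.32, adjusted p = 0.526 under quantile normalization and -0.10, adjusted p = 0.881 with normexp. The other probe of Cacnb2 gave 0.39.

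Transmitter receptors and related genes were counted against the same shares, 4.52% of all features above 0 and 17.6% below. Most of these lists had their median level in the brightest 2 of 5 bins, where the shares were 6.39% and 4.51%. Of 16 ionotropic glutamate receptor genes 0 were above and 2 below, Grid1 with -0.60 ± 0.20, adjusted p = 0.0319 and Grik2 with -0.98 ± 0.33, adjusted p = 0.0403; these lost their calls in 6 and 11 of 21 fits that left out 1 sample (highest adjusted p 0.0728 and 0.0887). Of 7 metabotropic ones 1 was below, Grm2, the presynaptic autoreceptor, with -1.24 ± 0.25, adjusted p = 0.00132. Its values were 10.05, 10.13, 10.25, 9.88 and 8.87 for C57 mpFC, 9.48, 9.11, 9.42 and 9.08 for C57 Nac, 10.74, 10.68, 10.80, 10.67 and 10.96 for DBA mpFC and 8.70 to 9.19 (median 8.99) for DBA Nac, so that the DBA mpFC was above all other samples. Of 12 GABA-A receptor subunits 0 were called in limma; the largest were Gabrd with -0.82 ± 0.67, adjusted p = 0.419 and Gabrb1 with -0.38 ± 0.14, adjusted p = 0.0522. Of 7 serotonin receptors 1 was below, Htr1a with -1.0 ± 0.33, adjusted p = 0.0356, lost in 9 of 21 such fits (highest adjusted p 0.0833). Of 13 dopamine signalling genes 2 were above and 0 below, Slc6a3 and Maob, a monoamine oxidase, with 0.49 ± 0.14, adjusted p = 0.0154, and the median was 0.32 (-0.05 without the 3 C57 mpFC samples). The receptor Drd1 had 0.32 ± 0.63, adjusted p = 0.764, and -0.33, adjusted p = 0.817 without the 3 C57 mpFC samples. Drd1 and other members of this list are in the striatal score by which those samples were picked. Of 8 endocannabinoid genes 1 was below, the lipase Abhd12 with -0.95 ± 0.20, adjusted p = 0.00162.

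Synaptic and signalling lists were read beside the same 4.52% and 17.6%, and beside 6.39% and 4.51% in the brightest 2 of 5 bins, where most had their median level. Of 24 synaptic vesicle genes 0 were above and 3 below, Syt10, Syn3 with -0.90 ± 0.19, adjusted p = 0.00179 and Sv2a with -0.78 ± 0.21, adjusted p = 0.00938, with a median of -0.17. Of 17 RGS genes, which shorten G protein signals, Rgs3 was above with 0.82 ± 0.21, adjusted p = 0.008 and Rgs7 and Rgs16 below with -1.03 ± 0.21, adjusted p = 0.00113 and -0.90 ± 0.17, adjusted p = 0.000874. The other probes of Rgs3 gave -1.02 (adjusted p = 0.00564 over all probes in limma) and 0.51 (adjusted p = 0.0844). Its probes were thus called in opposite directions. Of 24 cadherins and protocadherins 0 were above and 3 below, Cdh7 with -0.86 ± 0.22, adjusted p = 0.00644, Pcdh1 with -0.57 ± 0.16, adjusted p = 0.013 and Pcdh10 with -0.62 ± 0.19, adjusted p = 0.0255. The call of Pcdh10 was lost without C57 Nac ctr 2+4 (-0.61, adjusted p = 0.0506) or C57 Nac RCF 4 (-0.59, adjusted p = 0.0532). Of 21 immediate early genes Jun was above with 0.55 ± 0.15, adjusted p = 0.0142 and Ier5 below. Of 14 glucocorticoid receptors and targets 0 were called; Mt1 had 0.39 ± 0.19, adjusted p = 0.156 and Nr3c2 -0.38 ± 0.25, adjusted p = 0.293.

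Clock, chromatin, strain, antigen presentation and imprinted genes were read beside the same 4.52% of all features called above 0 and 17.6% below. The clock and antigen presentation lists had their median level in bin 3 of 5, where 4.95% were called above 0 and 13.6% below. The other lists here had theirs in the brightest 2 of 5 bins, where these shares were 6.39% and 4.51%. Of 19 circadian clock genes 0 were above and 4 below, Nr1d1 with -0.97 ± 0.22, adjusted p = 0.00342, Bhlhe41 with -0.86 ± 0.23, adjusted p = 0.0108, Npas2 with -1.70 ± 0.48, adjusted p = 0.0149 and Per3 with -1.14 ± 0.39, adjusted p = 0.0424, against a list median of -0.024. Per3 lost its call in 12 of 21 fits that left out 1 sample (highest adjusted p 0.0905). Of 37 chromatin modifiers Hdac3, a histone deacetylase, was above with 0.61 ± 0.19, adjusted p = 0.0279 and 4 were below, among them Tet3 with -0.88 ± 0.16, adjusted p = 0.00048, Hdac8 with -0.77 ± 0.23, adjusted p = 0.0203 and Dnmt3b with -0.76 ± 0.19, adjusted p = 0.00511. The call of Hdac3 was lost in 5 of 21 fits (highest adjusted p 0.0737), and the other probe of Dnmt3b gave 0.44. Of 7 genes known to differ between strains Alad, of haem synthesis, was below with -0.61 ± 0.17, adjusted p = 0.0112, and -0.41, adjusted p = 0.414 with all 31 arrays. Of 19 antigen presentation genes H2-M3 was above with 0.99 ± 0.23, adjusted p = 0.00335. Of 17 imprinted genes Snrpn was below with -0.83 ± 0.17, adjusted p = 0.0013; its other probes gave -0.81 and 0.24.

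The Xlr genes, X-linked and named in the title, were measured by 3 features. Xlr3b had -0.37 ± 0.53, adjusted p = 0.668, Xlr4a 0.029 ± 0.81, adjusted p = 0.986 and Xlr4b 0.23 ± 0.82, adjusted p = 0.877, and 0 of the 3 were called. The sign of Xlr4a and Xlr4b changed with the sample left out; the family's copies are near-identical, so a probe may read several.

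The housekeeping lists had small positive medians. Both had their median level in the brightest bin, where the median interaction of all features was 0.09. In that bin 6.27% of features were called above 0 and 2.8% below, against 4.52% and 17.6% over all bins. Of 62 ribosomal protein genes 53 were positive, with a median of 0.20. In limma 1 was called above 0 and 0 below. Of 37 respiratory chain genes 30 were positive, with a median of 0.17, beside a median of 0.07 over the brightest 2 of 5 bins of all features. Called were 2 above 0, Sdhc and Ndufa9 with 0.32 ± 0.10, adjusted p = 0.0296 and 0.37 ± 0.13, adjusted p = 0.0496, and 3 below, among them Ndufa10 and Cyc1 with -0.45 ± 0.12, adjusted p = 0.0118 and -0.25 ± 0.089, adjusted p = 0.049. Sdhc, Ndufa9 and Cyc1 lost their calls in 5, 17 and 16 of 21 fits that left out 1 sample (highest adjusted p 0.0765, 0.115 and 0.098). The other probe of Sdhc gave -0.08.

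Whether the interaction differed between RCF and ctr was tested on the 8 group means before treatments were pooled. In limma 2 features (0.00783%) passed and 154 had an unadjusted p under 0.05. These were Stk32a, a kinase gene, with 3.45 ± 0.42 (RCF minus ctr, adjusted p = 0.00295), and the unnamed probe A_30_P01025102 with 3.89 ± 0.38 (adjusted p = 0.000208). Stk32a was at 12.59, 8.36, 8.77 and 8.67 in the C57 Nac, where the first value is the lone ctr sample, and A_30_P01025102 at 13.67, 10.13, 9.88 and 10.31. Both calls rest on C57 Nac ctr 2+4, and the fit could not be made without it. The pooled interactions of the 12 highest and 12 lowest genes had the same sign in ctr and in RCF alone by the rule that chose them.

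Some calls of the genes named above did not hold when the scaling or the samples changed. Where samples were left out, a call can be lost through the smaller number of samples alone. Under quantile normalization calls were lost for Bhlhe41, Cacna1b, Cacna2d2, Dnmt3b, Fabp7, Grid1, Grik2, Hdac8, Htr1a, Kcnab2, Ndufa9, Npas2, Pecam1, Per3, Sdhc, Slc1a3, Slc32a1, Tek, Trf and Zic1, and under cyclic loess for Bhlhe41, Cacna1b, Cacna2d2, Dnmt3b, Fabp7, Grid1, Grik2, Hdac8, Htr1a, Kcna3, Kcnab2, Kcnh1, Kcnh4, Ndufa9, Npas2, Pecam1, Per3, Sdhc, Slc1a3, Slc32a1, Tek, Trf and Zic1. With the normexp background correction they were lost for Alad, Bhlhe41, Cacna1b, Cartpt, Cd247, Cdh7, Cldn11, Cyc1, Ddn, Dnmt3b, Fabp7, Gng8, Gpr37l1, Grid1, Grik2, Hdac3, Hdac8, Htr1a, Kcna3, Kcnab2, Kcnh4, Ndufa9, Npas2, Olfr1307, Olfr513, Oxt, Pcdh10, Pecam1, Per3, Prrg4, Rtn4rl2, Slc32a1, Sstr3, Ston1, Tek, Tet3, Trf and Zic1. With all 31 arrays they were lost for Alad, Aqp1, Bhlhe41, Ccnd1, Cdh7, Cort, Crybg1, Cyc1, Fabp7, Fam126b, Gng8, Grid1, Grik2, Hdac8, Htr1a, Jun, Maob, Mnd1, Oxt, Per3, Rgs16, Rgs3, Scn3b and Trh. Without C57 mpFC ctr 2, RCF 3 and RCF 4 they were lost for Alad, Bhlhe41, Cacna1b, Cacna2d2, Cacnb1, Cartpt, Cldn11, Cyc1, Ddn, Dnmt3b, Gpr37l1, Grid1, Grik2, Hdac3, Htr1a, Jun, Kcnab2, Kcnh4, Mal, Maob, Mnd1, Ndufa10, Ndufa9, Npas2, Nr1d1, Nts, Oxt, Pcdh1, Pcdh10, Pecam1, Per3, Scn3b, Sdhc, Six3, Slc1a3, Slc32a1, Spint2, Sstr3, Tbc1d16, Trf and Zic1. Without DBA Nac ctr 1, RCF 3 and RCF 4 they were lost for Cacna1b, Cacna2d2, Fabp7, Gng8, Grid1, Grik2, Hdac3, Jun, Pcdh10, Per3, Scn3b, Sdhc, Trf and Zic1.

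Where a gene had another probe, the probes did not always give the same result. For genes called on their brightest probe, 18 of 25 other probes had the same sign.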

How the data were processed

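RNA (200 ng per sample, RNA integrity number at least 8.0, per the labels' protocols) was hybridised to 1-colour Agilent mouse arrays and read with Agilent Feature Extraction 10.7.3.1, per the file headers. The deposited values are on a log2 scale, and each array has the same 75th percentile of 11.4; how 30067 probes were chosen is not given in the sources used here. The scanner files hold deposited intensity values, background-subtracted by the scanner software per the file headers, and were used for alternatives, detection and control spots. They lack mean spot signals, so normexp (offset 50) used median signals. Arrays were assigned to samples by matching values; the matching scanner file correlated at 0.999996 or above, any other at most at 0.998.

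The samples, genes and lists were chosen with earlier results of these data known. Near-duplicate arrays (C57 Nac ctr 2 and 4, DBA mpFC ctr 2 and 4, DBA mpFC RCF 1 and 3) differed with an SD of 0.168 to 0.225 in log2 over probes across 4 such pairs, against 0.219 to 0.710 for the other 41 pairs, and were averaged and counted as 1 sample. Each gene was represented by its brightest probe, named from RefSeq transcript accessions (GRCm38.p6), and probes without a symbol were kept as features. Limma 3.58.1 in R 4.3.3 fitted the 4 strain and region means and treatment (16 residual degrees of freedom), with eBayes trend and Benjamini-Hochberg adjustment over 25536 features. Tested on simulated data, the fit recovered 63% of interactions of 1 and 95% of 2 (log2). The simulation changed a small share of features, with noise independent between features and no slide effect. In the real data 22.2% of features were called, so the recovered percentages need not hold there. On every array 30044 of the 30067 probes rose well above background, and 2 were saturated on at least 1 array; the number of arrays limits the precision. Named genes were the 12 highest and 12 lowest called genes with the same sign in both treatments and with any 1 sample left out, the 6 with the smallest p in each direction, and up to 4 called members of each list, by p. A further 12 per direction from the brightest 2 of 5 brightness bins and 8 further list members were added after seeing the data. A few members of the lists are counted in them but not reported here by name.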

Additional observations from a re-analysis of the deposited data

Results flagged for a closer look

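Within a strain and region, the highest or lowest sample of a gene stood apart from the rest by Dixon's test at the 95% level in 51 of 460 groups examined; chance gives about 1 in 20. Values below are log2 intensities. DBA Nac RCF 4 was lowest for Abhd12 (10.85), Alad (11.26), Atp6v1g2 (12.02), Bgn (6.46), Bhlhe41 (6.33), Cdhr2 (9.64), Kcna7 (9.16), Ndufa10 (12.75), Ndufa9 (12.99), Olfr94 (3.88), Rtn4rl2 (6.01), Scgb1b10 (9.99), Spint2 (8.73), Wfdc18 (7.39) and Xntrpc (8.19) and highest for Sstr3 (10.64). C57 mpFC RCF 4 was lowest for Cdh7 (7.96), Grm2 (8.87), Kcna7 (9.69), Mbp (11.62), Pisd-ps3 (8.84), Scgb1b10 (10.19), Spint2 (9.03) and Xntrpc (8.96) and highest for Kcnh1 (8.56) and Mnd1 (8.98). DBA mpFC RCF 2 was lowest for Abhd12 (11.93), Bhlhe41 (6.62), Ier5 (9.94) and Kcnab2 (6.01). C57 Nac ctr 2+4 was lowest for Cacnb1 (8.07) and Cyc1 (14.47) and highest for A_30_P01025102 (13.67) and Stk32a (12.59). C57 Nac RCF 4 was lowest for Wfdc18 (8.43) and highest for Gabrb1 (11.90), Olfr901 (7.15) and Pcdh10 (12.83). DBA mpFC RCF 4 was lowest for Ndufa9 (12.84) and highest for Clic6 (6.67), Mnd1 (8.51) and Rgs3 (11.06). C57 Nac RCF 3 was lowest for Cdh7 (9.16) and Mnd1 (6.17) and highest for Pomc (9.34). C57 mpFC ctr 1 was highest for Npas2 (7.25) and Rhbdl2 (6.33). DBA Nac RCF 1 was highest for Dnmt3b (7.68). DBA mpFC ctr 3 was highest for Gabrb1 (12.55). DBA Nac ctr 1 was highest for Gng8 (9.21). C57 mpFC RCF 3 was lowest for Grid1 (6.54). For Stk32a the interaction in RCF was 3.45 above that in ctr, and for A_30_P01025102 3.89 above, both past the threshold in limma and both resting on C57 Nac ctr 2+4. The spike-in controls (+)E1A_r60_3 and (+)E1A_r60_a107, which no comparison used, had interactions of -1.17 and -1.03.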

How the results depend on the processing

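The count of 5660 features with an interaction was within 1.5 times of itself under quantile normalization (4881, 3611 shared with the 5660), cyclic loess (4824, 3486 shared) and when samples were left out in turn (4838 to 6045). It moved further to 2114 (normexp), 825 (features of at least median brightness), 1356 (ctr samples alone) and 1814 (RCF samples alone). It also moved to 0 (scanner files as listed), 525 (brightest 2 of 5 bins refitted) and 3424 (3 C57 mpFC samples out). Fits on part of the samples had fewer of them, which alone can lower the count. With scanner-file probes chosen by a background filter it was 9871. That filter needed a clear signal in 3 arrays from any 1 group, so a probe could enter through a single group. The part of this filter in the rise was not tested. With files as listed, 66 features had an unadjusted p under 0.05 in limma for the interaction and 624 by treatment. Here and below, that fit used all 31 arrays, with none left out and none averaged. The 532 opposite-sign features moved to 342 (quantile normalization), 122 (normexp), 86 (features of at least median brightness), 800 (near-duplicates not averaged), 286 (8 group means), 56 (ctr samples alone), 77 (RCF samples alone), 873 (array weights), 0 (striatal minus cortical score as covariate), 12 (oligodendrocyte score as covariate), 0 (scanner files as listed), 316 (cyclic loess), 57 (brightest 2 of 5 bins refitted) and 205 (3 C57 mpFC samples out), and to between 374 and 692 with 1 sample out (374 without C57 Nac RCF 4). The 2 features by treatment became 4 (quantile normalization), 1 (features of at least median brightness), 5 (every probe tested), 1 (probe means), 0 (all 31 arrays), 0 (near-duplicates not averaged), 0 (scanner files as listed), 4 (3 DBA Nac samples out) and 15 (3 C57 mpFC samples out), and 2 to 4 with 1 sample out in the 20 fits that could be made; at an unadjusted p under 0.05 there were 154, and 527 with all 31 arrays and 458 with near-duplicates not averaged. With the replicate block over the 9 numbers present in both regions the interaction was called for 4666 features, and deviations of same-numbered samples correlated between -0.24 and 0.33, so the numbers were not taken as pairs. A slide block could not be fitted because slide and group coincide. Both score covariates largely follow region, so the opposite-sign counts under them cannot decide how many such features there are. Cyclic loess, the brightest 2 of 5 bins and both sets of 3 samples left out were chosen after seeing the data.

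Of the 115 features named, 92 kept direction and side of the threshold under quantile normalization (20 lost the call), 90 under cyclic loess (23 lost), 76 under normexp (38 lost), 87 with all 31 arrays (24 lost) and 72 without the 3 C57 mpFC samples (41 lost). Reversed were A_30_P01025102 0.41 (RCF samples alone) and 0.32 (without C57 Nac ctr 2+4), Drd1 -0.17 (striatal minus cortical score as covariate) and -0.33 (3 C57 mpFC samples out), Mbp 0.26 (ctr samples alone), 0.17 (array weights), 0.038 (striatal minus cortical score as covariate), 0.14 (3 C57 mpFC samples out) and 0.23 (without C57 mpFC RCF 4), Nr3c2 0.034 (quantile normalization), 0.090 (normexp), 0.0067 (all 31 arrays) and 0.054 (cyclic loess), Slc32a1 -0.18 (probe means), Sstr3 -0.50 (all 31 arrays), Xlr3b 0.0066 (without C57 Nac ctr 2+4), Xlr4a -0.17 (no treatment term), -0.42 (8 group means), -1.12 (ctr samples alone), -0.28 (array weights), -0.49 (the replicate block), -0.18 (slide row as a term), -0.029 (oligodendrocyte score as covariate) and -0.091 (3 DBA Nac samples out), with a range of -0.33 to 0.73 when 1 sample was left out (then -0.28 and -0.27, next highest 0.41), Xlr4b -0.20 (8 group means), -0.86 (ctr samples alone), -0.31 (array weights), -0.24 (the replicate block) and -0.015 (slide row as a term), with a range of -0.21 to 0.91 when 1 sample was left out (next highest 0.69). With scanner files as listed 54 reversed, to Oxt -0.47, Wfdc18 -0.29, Aqp1 -0.32, Trh -0.42, Tdrd5 -0.10, Slc6a3 -0.28, Mnd1 -0.53, Gng8 -0.19, Crybg1 -0.20, Olfr901 0.061, Bgn 0.21, Kcnip2 0.053, Olfr170 0.11, Cd247 0.41, Prrg4 0.24, Atf5 -0.083, Olfr1307 0.21, Lctl 0.17, Olfr513 0.12, Mrap2 -0.14, Cort -0.39, Zic1 -0.032, Vstm2b -0.15, Pxdn -0.11, Sstr3 -0.23, Elovl7 -0.12, Fabp7 -0.39, Kcna7 0.071, Cdhr2 0.00090, Cdh7 0.059, Pcdh1 0.076, Hdac8 0.079, Bhlhe41 0.011, Npas2 0.37, Per3 0.088, Rtn4rl2 0.029, Gabrd 0.28, Jun -0.14, Grid1 0.037, Grik2 0.015, H2-M3 -0.084, C1qb 0.22, Pomc -0.24, Rgs16 0.28, Rgs7 0.20, Rgs3 -0.17, Cacnb2 0.25, Kcnh1 0.037, Xlr3b 0.12, Kcnh4 0.16, Mbp 0.065, Ndufa9 -0.094, Scn3b 0.11 and Xlr4a -0.054. The cause of the other changes was not tested. Calls below 0 were more frequent among dim features, at 4.51% of the brightest 2 of 5 bins and 39.2% of the dimmest bin. Calls above 0 went the other way, at 6.39% and 1.64%.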
